A study of Mus musculus with 6 samples.

Results

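Oligodendrocytes are the glia that wrap axons of the central nervous system in myelin. They arise from proliferating precursors, which commit, form new processes and then switch on the genes of the myelin sheath. The genes described here are 36 markers and regulators of that lineage, chosen by symbol, of 54884 entries in the expression table. Each of the 36 symbols matched 1 entry. They were grouped from textbook knowledge into 10 precursor, 11 committed and 15 myelinating genes, although several (among them Gpm6b, Fyn, Sirt2, Tcf7l2 and Enpp2) are also expressed outside the lineage.

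The RNA came from neural stem cells of C57BL/6J mice, isolated from the hippocampus at embryonic day 14 and used at passages 3 to 8. One group of 3 libraries carried a lentivirus with the control siRNA circCon, and the other group of 3 carried a lentivirus with an siRNA against circHIPK2, a circular RNA of the Hipk2 gene. The comparison asks which transcripts differ when this circular RNA is targeted. The RNA was selected by its poly(A) tail, and the level of circHIPK2 itself is not analysed here. The labels do not say whether the libraries of a group came from separate cultures. The p-values then measure only how far these libraries spread, which may be technical.

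Expression was given as FPKM, sequenced fragments scaled to transcript length and library size. The steps between low values, read as single fragments, put the depth between 18400000 and 21890000 fragments per library, so that a single fragment on a transcript of 1 kb gave 0.0457 to 0.0543 FPKM. If the steps were smaller than 1 fragment, these depths would be too high. The siRNA libraries stood apart from the controls in 9 entries linked to the ribosomal RNA locus, which took 0.321% to 0.58% of summed FPKM in the controls and 11.5%, 3.24% and 19.9% in siRNA libraries 1, 2 and 3. A set of 8 liver genes summed to between 35.8 and 58.0 FPKM in the controls and to between 1.88 and 2.12 FPKM with the siRNA.

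The label of neural stem cell was checked against 7 markers. Fabp7, a fatty acid binding protein of radial glia and the most abundant of them, had 1127, 1545 and 946 FPKM in controls 1, 2 and 3 and 881, 793 and 592 FPKM in the siRNA libraries 1, 2 and 3. The stem cell genes Nes, Sox2 and Vim had control means of 77.2 ± 11.5, 98.0 ± 16.8 and 507 ± 111 FPKM (SD, n = 3). Their siRNA means were 71.0 ± 6.99, 104.5 ± 13.4 and 626 ± 33.1 FPKM. Of the 6 stem cell markers tested, 0 were called. Their log2 fold changes were below 0 for 3 and above 0 for 3, where 77.1% of all entries were below 0. The median of these 6 markers was −0.012, against −0.12 for all entries. The lowest of the 7, Prom1, had 1.02 ± 0.0515 FPKM in the controls. These cells therefore carried both stem cell and oligodendrocyte lineage transcripts, in bulk RNA that does not separate cells expressing both from a mixture of cells. In such RNA fewer cells of a type and less RNA per cell cannot be told apart.

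Of the 36 genes, 27 averaged at least 1 FPKM over the 6 libraries and were tested, 9 precursor, 8 committed and 10 myelinating. None passed at an adjusted p below 0.05 (limma, Benjamini-Hochberg; the lowest adjusted p, for Tmem100, was 0.163), where 0.117% of the 13702 entries tested were called higher and 0.139% lower. At an unadjusted p below 0.05, 9 of the 27 were lower and 0 higher, against 15.5% and 1.83% of all entries. The median log2 fold change of the tested members, on the log2(FPKM + 1) scale, was −0.32, with a range from −0.81 for Tmem100 to 0.16 for Tcf7l2, while the median of all entries was −0.12. The size of the members' median depended on the scaling: it was −0.20 with median-of-ratios scaling, −0.17 with quantile normalization and −0.13 with the ribosomal RNA locus entries removed, where the medians of all entries were −0.001, 0.0006 and 0.06. Values were below 0 for 24 of 27 members, where 77.1% of all entries were below 0, and below the median of all entries for 23 of 27, where the share is 50% by construction.

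The difference between the members' median and that of all entries was smaller without siRNA library 3. Without it the median of the tested members was −0.11 and that of all entries −0.08. Then 19 of 27 members were below 0, where 69.3% of all entries were, which is near the background. Below the median of all entries were 17 of 27, against 50% by construction. In siRNA library 1 the median departure of the tested members from their control means was −0.275, against −0.13 for all entries. In siRNA library 2 it was 0.004, against −0.02. The siRNA libraries lay entirely below the controls for 7 members (Tmem100, Lhfpl3, Gpr17, Zfp488, Omg, Ugt8a and Enpp2) and entirely above for 0, against 22.1% and 2.65% of all entries. With siRNA libraries 1 and 2 alone, 7 members again lay below the controls, against 24.1% of all entries. In both counts of the deposited values the share among members is therefore near the background. With median-of-ratios scaling 8 of 27 members lay below and 1 (Tnfrsf21) above, each against 10.1% of all entries. With the ribosomal RNA locus entries removed and the columns rescaled, 5 of 27 lay below, against 4.29%, and Lhfpl3 and Omg overlapped. Under these scalings the share lying below was higher among members than among all entries.

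**Figure D1:**
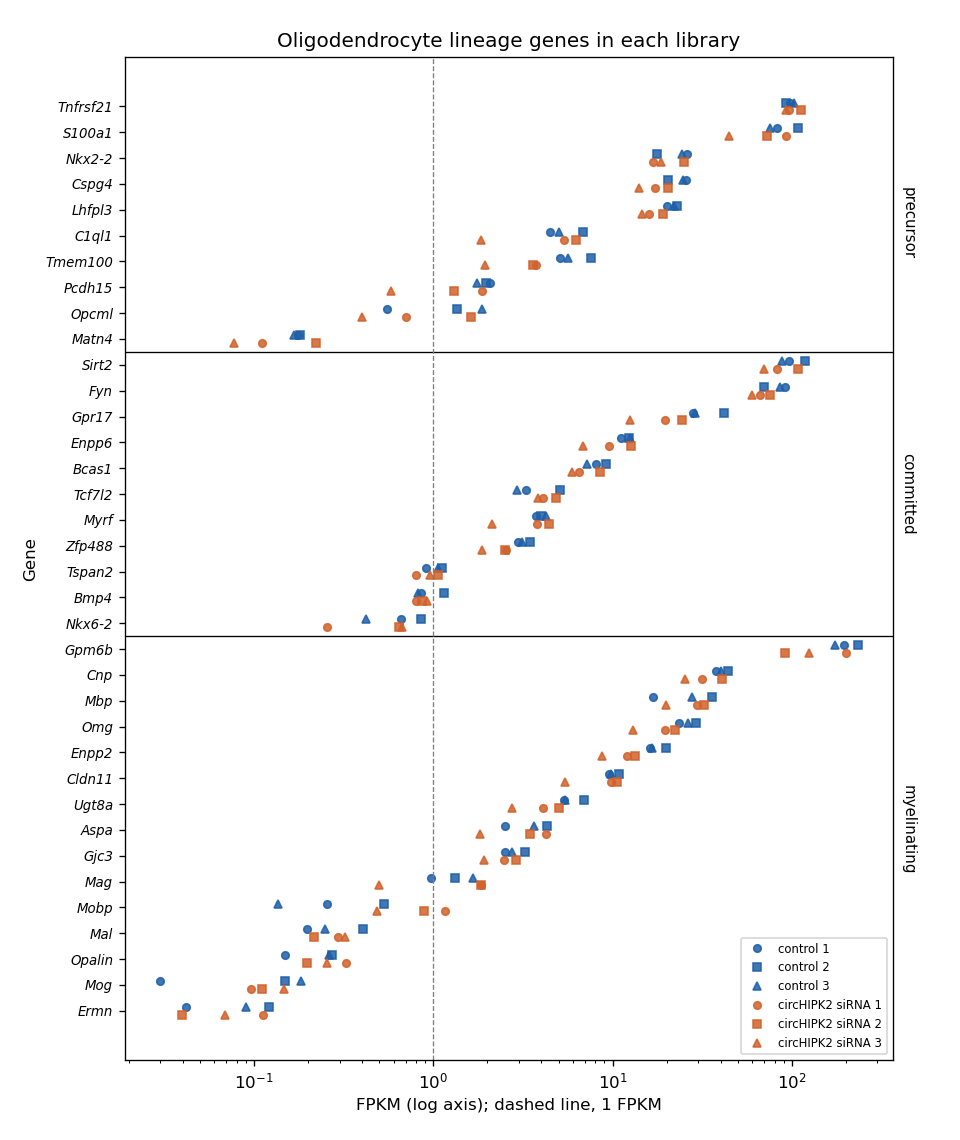
Level of each of the 36 genes in the 6 libraries, in FPKM on a log axis, by stage; blue symbols are the 3 control and orange symbols the 3 siRNA libraries, with the same symbol for the same library number. The levels run from 0.0297 FPKM for Mog to 234 FPKM for Gpm6b, and siRNA library 3 (orange triangles) is the lowest for 23 of the 27 tested genes.

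The promoters of 3 of the 7 genes whose siRNA libraries lay below the controls in the deposited values are shown. These are the 3 that were found in the RefSeq table (build GRCm38.p6). Tmem100, Gpr17, Omg and Enpp2 were not matched. The 3 fall 1 in each stage: Lhfpl3 for precursors, Zfp488 for committed cells and Ugt8a for the myelinating stage. Each sequence is the 250 bases before the start, in the direction of the gene. Capitals mark the E-box motifs CAGCTG or CAGATG and the GC box motif GGGCGG, on either strand; the SOX core motifs ACAAAG and ACAATG were also searched and occur in none of the 3. The windows are chr5:22745804-22746053 on the plus strand for Lhfpl3, chr14:33978765-33979014 on the minus strand for Zfp488 and chr3:125938653-125938902 on the minus strand for Ugt8a. The submitters' processing notes name the mm9 build, and these coordinates are used only to state where the printed sequence lies.
Lhfpl3: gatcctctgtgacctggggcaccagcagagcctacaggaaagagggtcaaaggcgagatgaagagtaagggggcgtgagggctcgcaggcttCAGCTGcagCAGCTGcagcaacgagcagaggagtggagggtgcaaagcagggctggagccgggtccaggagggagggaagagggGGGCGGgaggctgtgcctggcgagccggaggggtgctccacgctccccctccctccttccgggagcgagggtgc
Zfp488: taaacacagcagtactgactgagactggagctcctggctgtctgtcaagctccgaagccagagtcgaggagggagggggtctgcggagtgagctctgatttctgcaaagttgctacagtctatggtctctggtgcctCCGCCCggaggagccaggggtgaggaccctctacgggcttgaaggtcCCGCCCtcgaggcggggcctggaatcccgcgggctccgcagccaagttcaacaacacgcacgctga
Ugt8a: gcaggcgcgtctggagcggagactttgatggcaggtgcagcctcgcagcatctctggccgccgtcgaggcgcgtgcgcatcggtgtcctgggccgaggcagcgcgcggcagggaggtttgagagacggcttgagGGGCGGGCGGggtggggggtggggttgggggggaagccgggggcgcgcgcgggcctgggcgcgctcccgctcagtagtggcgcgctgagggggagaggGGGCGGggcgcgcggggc

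The Lhfpl3 window held 2 E-box matches, at 158 and 149 bases before the start, and 1 GC box at 74 bases. Zfp488 held 2 GC boxes, at 113 and 66 bases, and Ugt8a held 3, at 116, 112 and 18 bases, the first 2 of which overlap. The GC content was 67.2% for Lhfpl3, 61.6% for Zfp488 and 76.8% for Ugt8a, where the median of all 32851 windows was 52.4%. A promoter was found for 28 of the 36 genes. Some of these 28 genes have several windows. Of their 33 windows, 12 had a GC box, 7 an E-box and 13 a SOX core, against 32.7%, 25.5% and 25.2% of all windows. Counted by gene, 12 had a GC box, 7 an E-box and 11 a SOX core in at least 1 window. These matches are descriptions of letters and were not tested as binding sites.

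Among the precursor genes, the surface proteoglycan gene Cspg4 (NG2), the classical marker of oligodendrocyte precursors, had 25.7, 20.3 and 24.7 FPKM in controls 1, 2 and 3 and 17.3, 20.5 and 14.0 FPKM in the siRNA libraries 1, 2 and 3. The groups overlapped by a small margin, through control library 2 and siRNA library 2 (log2 fold change −0.44, SE 0.15; limma, Benjamini-Hochberg adjusted p = 0.218). Pericytes also express Cspg4. The other 5 pericyte markers (Pdgfrb, Rgs5, Kcnj8, Abcc9 and Anpep) each had group means of at most 0.212 FPKM. The homeodomain factor gene Nkx2-2, which acts in specification and differentiation of the lineage, had 26.0, 17.6 and 24.4 FPKM in the controls and 16.7, 25.0 and 18.6 FPKM with the siRNA. Its libraries were mixed between the groups (log2 fold change −0.17, SE 0.18).

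Lhfpl3, a tetraspan membrane protein gene enriched in precursors, had 20.0, 22.9 and 21.9 FPKM in the controls and 15.9, 19.0 and 14.6 FPKM with the siRNA. In the deposited values all 3 siRNA values were below all 3 control values, and the siRNA mean was 76.4% of the control mean. With the ribosomal RNA locus entries removed the groups overlapped. The log2 fold change in the deposited values was −0.38 (SE 0.12, limma, Benjamini-Hochberg adjusted p = 0.199). Lhfpl3 shares exon sequence on the opposite strand with A930003O13Rik, at a mean of 3.03 FPKM; whether counting used strand is not given in the sources. Tmem100, a small transmembrane protein gene responsive to BMP signalling, had 5.10, 7.58 and 5.64 FPKM in the controls and 3.75, 3.61 and 1.94 FPKM with the siRNA. The groups did not overlap and the siRNA mean was 50.8% of the control mean, the lowest such share among the tested members (log2 fold change −0.81, SE 0.21). Without siRNA library 3 it was 60.3%, with a log2 fold change of −0.59 (limma, Benjamini-Hochberg adjusted p = 0.317).

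The secreted C1q family gene C1ql1 had 4.49, 6.85 and 5.02 FPKM in the controls and 5.38, 6.23 and 1.84 FPKM with the siRNA. The protocadherin gene Pcdh15 had 2.08, 1.97 and 1.76 FPKM in the controls and 1.87, 1.30 and 0.583 FPKM with the siRNA. For S100a1, a calcium-binding protein gene, the controls had 82.4, 108 and 75.8 FPKM and the siRNA libraries 92.7, 72.5 and 44.5 FPKM. In each of these 3 genes siRNA library 3 was the lowest of the 6 and siRNA library 1 lay within the controls' range. The log2 fold changes were −0.33 (SE 0.32), −0.42 (SE 0.20) and −0.39 (SE 0.25), and without siRNA library 3 they were 0.09, −0.19 and −0.10.

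Tnfrsf21, the death receptor gene of precursors and neurons, was the most abundant precursor member, with 98.0, 92.8 and 103 FPKM in the controls and 96.8, 112 and 92.7 FPKM with the siRNA. In the deposited values it was the only one of the tested precursor members with a log2 fold change above 0 (0.04, SE 0.11). In those values its spread within each group was larger than the difference. With median-of-ratios scaling its siRNA libraries lay entirely above the controls, as held for 10.1% of all entries. Its log2 fold change was 0.17 with median-of-ratios scaling, 0.22 with quantile normalization and 0.24 with the ribosomal RNA locus entries removed. It passed in none of these (limma, Benjamini-Hochberg adjusted p = 0.33, 0.288 and 0.376). Without control library 2 its sign turned (−0.003), as it did without siRNA library 2 (−0.05). Opcml, an IgLON adhesion gene, had 0.555, 1.36 and 1.87 FPKM in the controls and 0.704, 1.62 and 0.398 FPKM with the siRNA, with a wide range inside both groups. The matrilin gene Matn4 stayed under 0.25 FPKM in every library and was not tested.

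Gpr17, an orphan G-protein-coupled receptor gene that marks committed precursors, was the committed gene with the lowest siRNA share of control. It had 27.9, 42.0 and 28.9 FPKM in controls 1, 2 and 3 and 19.6, 24.3 and 12.5 FPKM in the siRNA libraries 1, 2 and 3. Every siRNA value was below every control value, and the means were 33.0 ± 7.88 and 18.8 ± 5.91 FPKM (SD, n = 3 each). By exact permutation test the two-sided p was 0.1, the lowest that 3 against 3 libraries can reach. Any entry without overlap has that p, so it does not set Gpr17 apart. Of all entries 22.1% lay entirely below the controls and 2.65% entirely above. The log2 fold change of Gpr17 was −0.80 (SE 0.24, limma, Benjamini-Hochberg adjusted p = 0.191), and −0.55 without siRNA library 3. Gpr17 shares exon sequence on the opposite strand with Lims2, which had 5.08, 7.04 and 5.15 FPKM in the controls and 2.82, 5.13 and 3.28 FPKM with the siRNA.

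Zfp488, a zinc finger gene that promotes oligodendrocyte differentiation, had 2.98, 3.46 and 3.11 FPKM in the controls and 2.56, 2.51 and 1.88 FPKM with the siRNA, also without overlap (log2 fold change −0.34, SE 0.12; limma, Benjamini-Hochberg adjusted p = 0.229). Enpp6, a choline phosphodiesterase gene of newly forming oligodendrocytes, had 11.2, 12.3 and 12.4 FPKM in the controls and 9.51, 12.7 and 6.83 FPKM with the siRNA. Bcas1, a gene of early myelinating cells, had 8.05, 9.17 and 7.22 FPKM in the controls and 6.51, 8.50 and 5.95 FPKM with the siRNA. In Enpp6 and Bcas1 siRNA library 2 lay within or above the control range and siRNA libraries 1 and 3 lay below it (log2 fold changes −0.32, SE 0.18, and −0.20, SE 0.14).

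Myrf, the membrane-bound transcription factor gene required for myelin gene expression, had 3.72, 3.99 and 4.27 FPKM in the controls and 3.78, 4.40 and 2.13 FPKM with the siRNA. Its siRNA libraries 1 and 2 were within or above the control range, so the log2 fold change of −0.21 (SE 0.19) became 0.03 without siRNA library 3. The Wnt pathway transcription factor gene Tcf7l2 had 3.27, 5.11 and 2.93 FPKM in the controls and 4.10, 4.82 and 3.82 FPKM with the siRNA. It had the highest log2 fold change of the tested members, 0.16 (SE 0.17; limma, Benjamini-Hochberg adjusted p = 0.628), and all its siRNA values lay within the control range.

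The abundant committed members were genes that other neural cells also express. Fyn, a Src family kinase gene of process outgrowth, had 91.1, 69.9 and 85.7 FPKM in the controls and 66.3, 76.0 and 60.3 FPKM with the siRNA (log2 fold change −0.28, SE 0.13). Sirt2, a tubulin deacetylase gene, had 96.7, 118 and 88.5 FPKM in the controls and 82.9, 108 and 69.8 FPKM with the siRNA (log2 fold change −0.23, SE 0.17). Both overlapped between groups, and in both siRNA library 3 was the lowest. Sirt2 shares exon sequence on the opposite strand with Nfkbib, which had 21.3, 18.1 and 20.4 FPKM in the controls and 13.6, 16.3 and 12.2 FPKM with the siRNA. The 3 committed genes under the filter were the tetraspanin gene Tspan2, the growth factor gene Bmp4 and the homeodomain gene Nkx6-2, at 1.03 ± 0.106, 0.940 ± 0.176 and 0.643 ± 0.217 FPKM in the controls against 0.938 ± 0.132, 0.859 ± 0.0597 and 0.522 ± 0.231 FPKM in the siRNA group (n = 3 each, ± SD).

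The myelin genes divided by level, on the per-length FPKM scale. Cnp, the CNPase enzyme of non-compact myelin and an early lineage gene, had 37.7, 43.9 and 40.1 FPKM in the controls and 31.7, 40.5 and 25.3 FPKM with the siRNA. Mbp, myelin basic protein, had 16.7, 36.01 and 27.8 FPKM in the controls and 29.6, 32.3 and 19.8 FPKM with the siRNA. Mbp varied more within the controls (26.9 ± 9.67 FPKM) than between the groups (log2 fold change 0.05, SE 0.27), and its sign turned without control library 1 (−0.24), siRNA library 1 (−0.02) or siRNA library 2 (−0.08). The Mbp gene also makes Golli transcripts from an upstream start, and the gene value does not separate them. Cnp shares exon sequence on the opposite strand with Dnajc7, at a mean of 50.3 FPKM.

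The defining genes of mature myelin were near the floor. Mog, a surface glycoprotein gene of the outermost myelin layer, had 0.0297, 0.149 and 0.184 FPKM in the controls and 0.0955, 0.110 and 0.146 FPKM with the siRNA. Opalin, a sialylglycoprotein gene of oligodendrocytes, had 0.149, 0.271 and 0.260 FPKM in the controls and 0.324, 0.196 and 0.253 FPKM with the siRNA. The group means of the actin-binding Ermn and the raft proteolipid Mal lay between 0.0734 and 0.284 FPKM. At this depth such values rest on few fragments, and these 4 genes overlapped between the groups.

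Mobp, a basic protein gene of compact myelin, had 0.256, 0.533 and 0.136 FPKM in the controls and 1.16, 0.884 and 0.483 FPKM with the siRNA. Its siRNA libraries 1 and 2 were above all controls, and siRNA library 3 lay within the control range. Mobp shares exon sequence on the same strand with Gm38642. That gene had 0, 0.0435 and 0.0072 FPKM in the controls and 0.087, 0.041 and 0.0234 FPKM with the siRNA. With a mean under 1 FPKM it was outside the main test; in the fit that kept entries averaging 0.1 FPKM or more its log2 fold change was 0.49 and did not pass. Mag, an adhesion gene of the inner myelin layer, had 0.975, 1.32 and 1.66 FPKM in the controls and 1.84, 1.85 and 0.498 FPKM with the siRNA. Here siRNA libraries 1 and 2 were above all controls and siRNA library 3 below them. Its log2 fold change was −0.0005 (SE 0.25), and 0.31 without siRNA library 3 (limma, Benjamini-Hochberg adjusted p = 0.492).

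**Figure D2:**
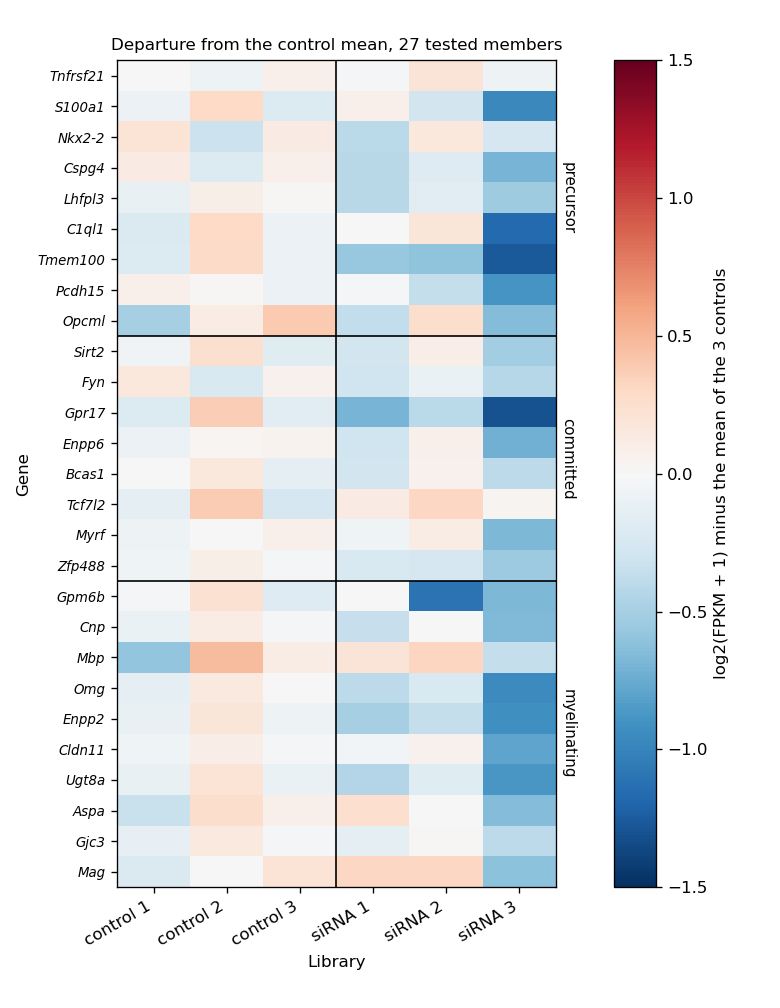
Departure of each of the 27 tested genes from its own control mean in each library, as log2(FPKM + 1), with genes in rows by stage and libraries in columns; blue is lower and red higher. Control library 2 is the highest of the 6 libraries for 18 genes and siRNA library 3 the lowest for 23.

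Among membrane and lipid genes of the myelinating group, Omg, a ligand of the Nogo receptor, had 23.5, 29.1 and 26.4 FPKM in the controls and 19.7, 22.3 and 13.05 FPKM with the siRNA. Ugt8a, the enzyme that makes the myelin lipid galactosylceramide, had 5.36, 6.90 and 5.41 FPKM in the controls and 4.07, 5.04 and 2.76 FPKM with the siRNA. Enpp2, which encodes autotaxin, a secreted enzyme that makes lysophosphatidic acid, had 16.1, 20.0 and 16.6 FPKM in the controls and 12.1, 13.4 and 8.76 FPKM with the siRNA. In the deposited values the siRNA libraries of all 3 lay below the controls, with siRNA means at 69.8%, 67.2% and 65.0% of control. With the ribosomal RNA locus entries removed the groups overlapped for Omg. The log2 fold changes of the 3 genes were −0.52 (SE 0.18), −0.50 (SE 0.18) and −0.59 (SE 0.16). Their Benjamini-Hochberg p-values by limma were 0.223, 0.231 and 0.17.

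Gpm6b, a proteolipid family gene shared with neurons and astrocytes, was the most abundant of the 36 genes, with 196, 234 and 174 FPKM in the controls and 200.2, 91.9 and 124 FPKM with the siRNA. It differed from most members in that siRNA library 2, not 3, was the lowest, while siRNA library 1 lay within the controls (log2 fold change −0.60, SE 0.26; limma, Benjamini-Hochberg adjusted p = 0.282). The tight junction gene Cldn11 had 9.59, 10.9 and 9.82 FPKM in the controls and 9.79, 10.6 and 5.41 FPKM with the siRNA. Aspa, the enzyme that cleaves N-acetylaspartate, had 2.52, 4.31 and 3.65 FPKM in the controls and 4.27, 3.44 and 1.83 FPKM with the siRNA. In Cldn11 and Aspa siRNA libraries 1 and 2 lay within the control range and siRNA library 3 below it, and their log2 fold changes of −0.25 (SE 0.21) and −0.13 (SE 0.24) became 0.02 and 0.13 without that library. The connexin gene Gjc3 had 2.51, 3.23 and 2.75 FPKM in the controls and 2.49, 2.88 and 1.92 FPKM with the siRNA (log2 fold change −0.17, SE 0.14).

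**Figure D3:**
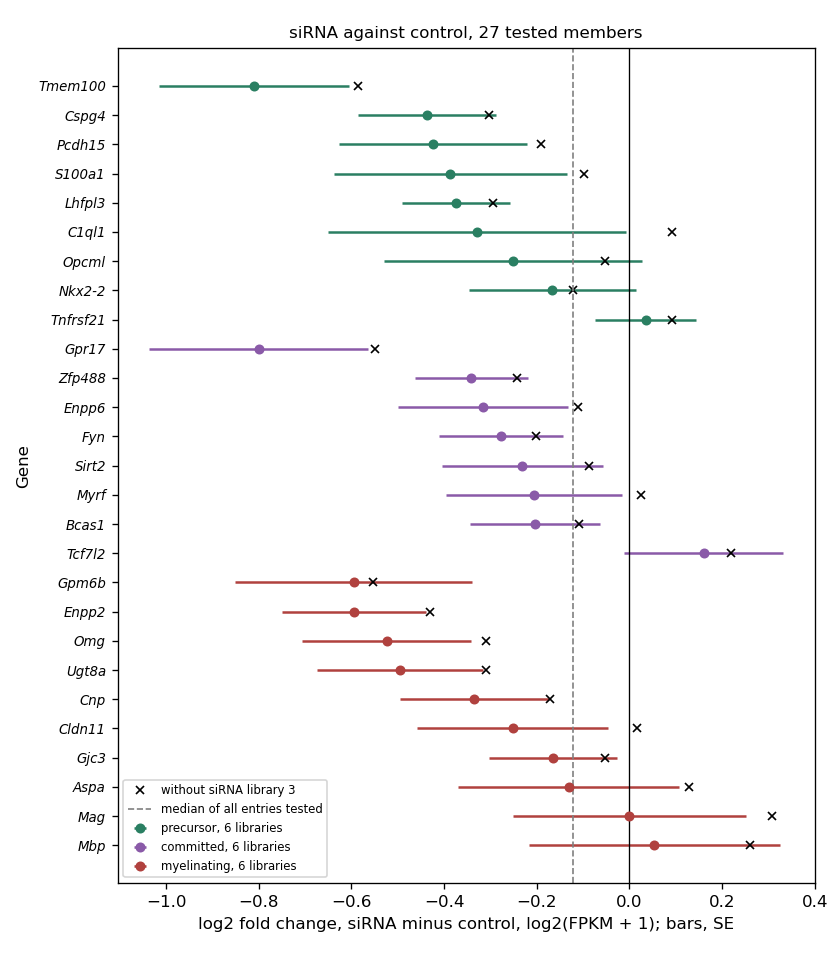
Log2 fold change of siRNA against control for the 27 tested genes on the log2(FPKM + 1) scale (points, with SE bars, coloured by stage), and the value without siRNA library 3 (crosses). The dashed line is the median of all entries tested, −0.12; most crosses lie to the right of their points, and Tmem100 and Gpr17 have the lowest values with all libraries.

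By stage, the median log2 fold change was −0.38 for the 9 tested precursor genes, −0.25 for the 8 committed and −0.29 for the 10 myelinating genes, with ranges that overlapped. Without siRNA library 3 the 3 medians were −0.12, −0.11 and −0.11. They were −0.24, −0.12 and −0.16 with median-of-ratios scaling, −0.24, −0.11 and −0.16 with quantile normalization, and −0.18, −0.06 and −0.10 with the ribosomal RNA locus entries removed. No difference between stages was tested. In control libraries the tested precursor, committed and myelinating genes had median levels of 21.6, 10.1 and 13.8 FPKM, where the median of all entries tested was 8.99 FPKM.

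All 3 stages had their lowest median in siRNA library 3, and their medians differed in the other siRNA libraries. In siRNA library 3 the median departure from the control mean was −0.70 for precursor, −0.53 for committed and −0.67 for myelinating genes, against −0.20 for all entries. In siRNA library 2 it was −0.17, 0.07 and 0.00, and in siRNA library 1 −0.36, −0.28 and −0.08. siRNA library 3 was the lowest of the 6 for 23 of 27 members, where this held for 48.3% of all entries, and for 22 with median-of-ratios scaling, where it held for 21.2%. With the ribosomal RNA locus entries removed and the columns rescaled it was the lowest for 19, against 10.8% of entries. The pattern held under both scalings, and it concerns 1 library. Within the group its share of ribosomal RNA locus entries, 19.9%, was the highest; the part of that in the member values was not tested.

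The controls differed among themselves as well. Control library 2 was the highest of the 6 for 18 of 27 members, where this held for 15.2% of all entries, and for 17 with median-of-ratios scaling, where it held for 17.8%. With the ribosomal RNA locus entries removed it was the highest for 10, against 5.22% of entries. Its median departure was 0.08, 0.13 and 0.17 for precursor, committed and myelinating genes and −0.04 for all entries. It was also the highest control for 5 of 7 astrocyte markers, where this held for 23% of all entries. That count was 5 as well with median-of-ratios scaling, against 35.3%, and with the ribosomal RNA locus entries removed, against 15.4%. Among them was Gfap, an intermediate filament gene of astrocytes, with 76.0, 181 and 70.5 FPKM in the controls and 262, 212 and 83.9 FPKM with the siRNA. For 4 members, Cspg4, Nkx2-2, Fyn and Tnfrsf21, control library 2 was instead the lowest control. Without control library 2 the members' median was −0.28, against −0.14 for all entries.

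**Figure D4:**
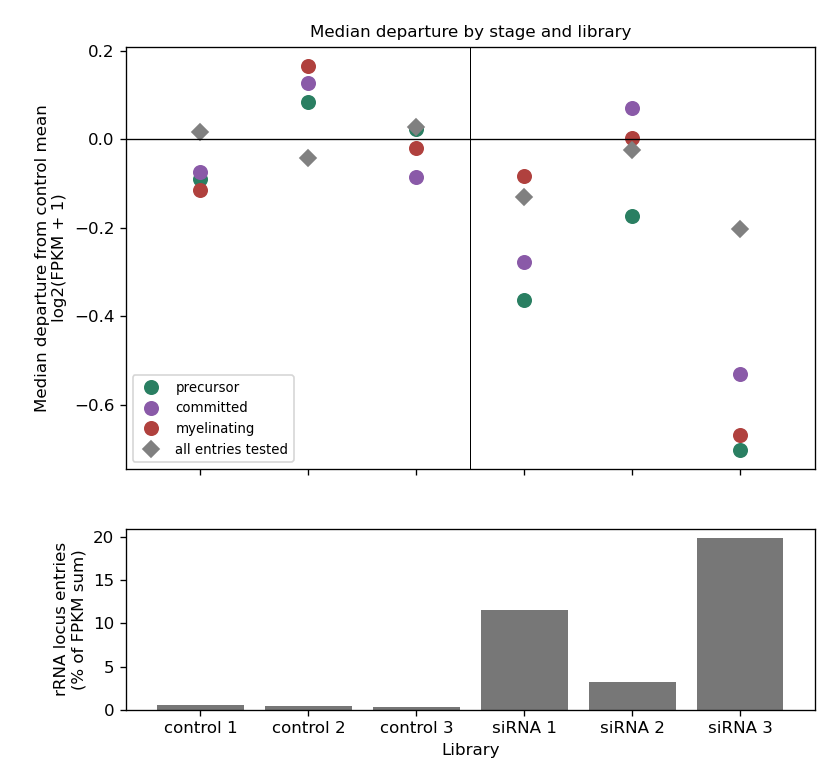
Top: median departure from the control mean, in log2(FPKM + 1), of the tested members of each stage (circles) and of all entries tested (diamonds), by library. Bottom: share of summed FPKM in the 9 ribosomal RNA locus entries. siRNA library 3 has the lowest medians in all 3 stages and the largest share, 19.9%, and control library 2 has the highest medians in all 3 stages.

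Of 30 further lineage genes outside the 36, 23 were tested, and 0 were called in either direction (lowest limma, Benjamini-Hochberg adjusted p = 0.189). At an unadjusted p below 0.05, 4 of the 23 were lower and 0 higher, near the 15.5% and 1.83% of all entries. Their median log2 fold change was −0.23, against −0.12 for all entries. The bHLH factor genes Olig1 and Olig2, which specify the lineage, were among the most abundant, at 452 ± 25.5 and 242 ± 19.0 FPKM in the controls against 398 ± 53.7 and 203 ± 18.2 FPKM in the siRNA group (n = 3 each, ± SD). The transcription factor gene Sox10 had 7.51, 9.61 and 7.41 FPKM in the controls and 8.51, 9.23 and 5.98 FPKM with the siRNA. Pdgfra, the growth factor receptor gene of precursors, had 14.0, 19.4 and 11.3 FPKM in the controls and 11.1, 11.6 and 5.28 FPKM with the siRNA. In Sox10 and Pdgfra, as in most members, control library 2 was the highest control and siRNA library 3 the lowest of all, and the groups overlapped. In Olig1 and Olig2 control library 3 was instead the highest of all and siRNA library 1 the lowest. Of the 23 genes tested, siRNA library 3 was the lowest for 16, where this held for 48.3% of all entries.

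Markers of other cells were measured beside these genes. Of 7 neuronal markers 5 were tested and 0 called, with siRNA libraries entirely below the controls for 4, against 22.1% of all entries. With median-of-ratios scaling this held for 3 of the 5, against 10.1%, and with the ribosomal RNA locus entries removed for 1, against 4.29%. Map2, the most abundant, had 109 ± 5.12 and 89.0 ± 4.47 FPKM, while Stmn2 was at most 0.125 FPKM. Of 7 astrocyte markers 0 were called, and their summed level ran from 580 to 901 FPKM in the controls and from 675 to 1084 FPKM with the siRNA, with Slc1a3, a glutamate transporter gene, highest at 304 ± 147 and 353 ± 128 FPKM. The astrocyte markers went both ways, with log2 fold changes below 0 for 3 and above 0 for 4, where 77.1% of all entries were below 0. These ran from −0.42 for S100b to 0.75 for Gfap. The part of neurons or astrocytes in the member values was not tested.

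Schwann cells, the myelin-forming glia of peripheral nerve, express some of the same myelin genes; their 5 markers summed to between 0.479 and 0.892 FPKM in all libraries, with Prx highest (0.532 ± 0.121 and 0.394 ± 0.0714 FPKM), and Foxd3 was listed at 0. The 5 endothelial markers summed to between 0.139 and 0.320 FPKM, with Pecam1 highest (0.127 ± 0.0463 and 0.102 ± 0.0397 FPKM), and the 6 microglial markers to between 0.390 and 0.922 FPKM, with Csf1r highest (0.378 ± 0.104 and 0.424 ± 0.0827 FPKM) and Cx3cr1 listed at 0. The 6 choroid plexus and meningeal markers summed to between 2.56 and 3.71 FPKM in the controls and between 0.181 and 0.399 FPKM with the siRNA, with most of the control sum from Ttr, the transthyretin gene, which the liver also expresses and which fell (limma, Benjamini-Hochberg adjusted p = 0.00153). Among the liver genes, Alb, serum albumin, fell from 19.1 ± 3.02 to 0.0714 ± 0.0432 FPKM and Serpina1b from 3.06 ± 0.541 to 0.00750 ± 0.0130 FPKM (limma, Benjamini-Hochberg adjusted p = 4.68e-06 and 0.00126). Serpina1b has near-identical paralogs, so its own level is uncertain. The part of these transcripts in the member values was not tested.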

How the data were processed

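RNA was selected with oligo-dT beads and sequenced from both ends, per the labels' protocols. FPKM values per gene were computed by the authors, 1 column per library; HISAT, StringTie and edgeR with the mm9 build are named per the submitters' processing notes, and their versions, the annotation and the use of strand are not stated in those notes. The deposited FPKM values were used as they stand. The 13702 entries averaging at least 1 FPKM over the 6 libraries were compared as log2(FPKM + 1), siRNA against control with 3 libraries each, with limma 3.58.1 in R 4.3.3 (mean-variance trend, two-sided, Benjamini-Hochberg adjustment over all entries). The steps were tested on simulated data. Percentages of control are ratios of mean FPKM. Depth was read from the steps between low FPKM values, using genes with a single annotated transcript: between 38.4% and 42.2% lay within 0.05 of a whole multiple, where 10% would by chance, so it is approximate.

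The results were recomputed with pseudocounts of 0.1 and 0.5, without a filter, a minimum mean of 0.1 FPKM, median-of-ratios scaling, quantile normalization, removal of the 9 ribosomal RNA locus entries with rescaling, limma without the trend, the replicate number as a block, and each library left out in turn. The members, stages, lists and the 9 entries were chosen with earlier results of these data known. Values in every library are given for the tested members and for named defining genes, and values per library or as mean ± SD for called genes of each other list (up to 2 a direction) or otherwise the most abundant. One gene of these lists is not reported here. Exon overlaps come from GENCODE M21 and promoters from RefSeq (GRCm38.p6).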

Additional observations from a re-analysis of the deposited data

How the results depend on the processing

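No member was called by limma under any of the 15 alternatives run. Over all entries the calls were 16 higher and 19 lower (35, of which 45.7% higher); with a minimum mean of 0.1 FPKM they were 53, with quantile normalization 16 (25% higher), with no filter 29 (24.1% higher), and without 1 library between 8 (without siRNA library 3) and 35; without control library 3 there were 22. With the replicate number as a block (replicate block) 46 entries and 0 members were called. The lowest adjusted p of a member in that fit was 0.0739 (Gpr17, limma with Benjamini-Hochberg adjustment). Deviations of same-numbered libraries correlated at 0.046, 0.015 and 0.133, and those of differently numbered libraries at −0.166 to 0.117. With 3 libraries a group these values cannot decide whether the numbers mark pairs. The main fit did not pair them.

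The precursor median of −0.38 ran from −0.47 to −0.12 without 1 library, and the medians of all tested, committed and myelinating members from −0.41 to −0.11, −0.38 to −0.11 and −0.37 to −0.11. Signs turned for Mag with median-of-ratios scaling (0.0666) and quantile normalization (0.0766), and for Nkx2-2 (0.031), Mag (0.10) and Aspa (0.0206) without the ribosomal RNA locus entries. Without 1 library, log2 fold changes ran from −0.24 to 0.29 for Mbp, −0.0465 to 0.091 for Tnfrsf21, −0.16 to 0.31 for Mag, −0.58 to 0.0909 for C1ql1, −0.37 to 0.0258 for Myrf, −0.41 to 0.02 for Cldn11 and −0.32 to 0.13 for Aspa. The cause was not tested. Values under about 0.05 FPKM for a 1 kb transcript are within single fragments of 0.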
